A study of Mus musculus with 4 samples.

Results

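The 8 genes described here, Slc25a31, Stk31, Taf7l, Dazl, Brdt, Tex101, Asz1 and Stra8, are genes of germ cells and spermatogenesis that stand outside the piRNA and synaptonemal complex groups. They were chosen by symbol from 18193 named genes on the array, with earlier results of these data known. Counts over them are set beside those of all genes as description. The 13 probe sets annotated to 1 of these symbols alone represent them. RNA came from cultured mouse ES (embryonic stem) cells, which derive from the early embryo and renew themselves, with 1 Affymetrix array in each of 4 groups. The first pair of arrays holds cells labelled as a constitutive knockout (KO) of Ring1B and their control. The second pair holds cells in which a conditional double KO (dKO) of Ring1A and Ring1B is labelled as day 4, and a control; per the series' design text this KO was made inducible with OHT because cells lacking both proteins could not be kept. Both controls are labelled wild-type, and the labels used here do not say whether the control of the conditional line received OHT or whether the lines share a parent. With 1 array per group no difference below has a replicate check, and no test across arrays was possible.

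Germ cell genes are transcribed in the testis or ovary and kept silent in most other cells. In mouse ES cells a variant form of Polycomb repressive complex 1 (PRC1), known as PRC1.6, is known to sit at many of their promoters through Mga with Max, which bind the E-box CACGTG, and through E2f6 with a Tfdp partner, which bind E2F sites. Ring1A and Ring1B are the ubiquitin ligase subunits shared by all PRC1 forms, and methylation of CpG-rich promoters is a further known layer of silencing at these genes.

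Signals below are the deposited MAS5 intensities after each array was scaled to a common 2%-trimmed mean of 277. A signal under the floor of 36.6 was set to the floor before log2 differences were taken, so a difference against an array at the floor is a bound, written "at least". The pairs were deposited on different scales, with trimmed means of 500.0 on both arrays of the Ring1B pair and of 147 and 160 on the dKO-labelled array and its control. Log2 signals over all probe sets correlated at 0.982 and 0.973 within the pairs and at 0.941 to 0.953 across them. At their brightest probe sets the targeted genes were under 2-fold apart within both pairs and so did not identify the labelled knockouts. Rnf2, which encodes Ring1B, had 2775 on the Ring1B-KO-labelled array, against 2580 on its control, and 1986 on the dKO-labelled array, against 2182 on its control. Ring1, which encodes Ring1A, had 164 against 146 in the first pair and 55.6 against 44.7 in the second. Both Ring1 signals of the second pair were close to the floor. Of the 5 probe sets of Rnf2 only the brightest was examined. Whether the examined probe sets lie in the deleted parts is not known here. Their signals thus do not show which array of a pair holds the knockout, and the arrays go by their labels. An exchange of the labels of the dKO array and its control was not tested and would turn the direction of every difference in that pair. All 10 ES cell markers examined, Pou5f1, Nanog and Sox2 among them, were above the floor on every array, with summed signals between 47188 and 63283.

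Promoter windows from 250 bases before to 50 bases after the start of each gene were found for all 8 genes in RefSeq (GRCm38.p6). The windows are shown because PRC1.6 partners are known to bind E-box and E2F letters. Each of the following 4 windows holds the E-box, in capitals; the capitals TTCCCGC near the end of the Slc25a31 window are an E2F-type motif. They lie at chr3:40708621-40708920 (plus strand) for Slc25a31, chr6:49395289-49395588 (plus strand) for Stk31, chrX:134476441-134476740 (minus strand) for Taf7l and chr5:107330944-107331243 (plus strand) for Brdt, and each is written 5′ to 3′ on the strand of its gene.
Slc25a31: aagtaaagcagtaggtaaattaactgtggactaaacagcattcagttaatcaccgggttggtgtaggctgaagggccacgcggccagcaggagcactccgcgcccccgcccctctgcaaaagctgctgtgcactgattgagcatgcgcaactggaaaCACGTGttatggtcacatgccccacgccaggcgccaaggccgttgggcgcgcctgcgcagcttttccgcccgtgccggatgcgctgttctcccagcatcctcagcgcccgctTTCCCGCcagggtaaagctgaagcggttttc
Stk31: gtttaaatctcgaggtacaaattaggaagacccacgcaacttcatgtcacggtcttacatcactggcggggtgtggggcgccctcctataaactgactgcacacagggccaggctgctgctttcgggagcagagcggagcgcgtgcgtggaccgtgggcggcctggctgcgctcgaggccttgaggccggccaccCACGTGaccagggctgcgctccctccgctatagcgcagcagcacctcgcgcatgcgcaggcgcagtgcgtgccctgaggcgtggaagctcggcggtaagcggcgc
Taf7l: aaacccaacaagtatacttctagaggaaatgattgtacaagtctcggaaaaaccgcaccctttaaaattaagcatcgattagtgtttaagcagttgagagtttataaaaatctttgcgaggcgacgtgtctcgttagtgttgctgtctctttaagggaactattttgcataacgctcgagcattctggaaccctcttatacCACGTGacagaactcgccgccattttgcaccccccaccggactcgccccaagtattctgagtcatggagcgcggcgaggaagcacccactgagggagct
Brdt: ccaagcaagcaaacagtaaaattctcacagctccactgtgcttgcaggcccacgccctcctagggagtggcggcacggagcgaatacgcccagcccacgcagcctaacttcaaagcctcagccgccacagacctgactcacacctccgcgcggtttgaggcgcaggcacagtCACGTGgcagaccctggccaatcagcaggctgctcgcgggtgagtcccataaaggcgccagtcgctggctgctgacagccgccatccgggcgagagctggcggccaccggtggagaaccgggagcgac
The E-box began 93 bases before the annotated start in Slc25a31, 55 in Stk31, 49 in Taf7l and 78 in Brdt.

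CACGTG reads the same on both strands, and it was found in the windows of 4 of the 8 genes. Of all 27025 genes with a promoter window, 8.09% held it in at least 1 window. CpG-rich windows held it more often, at 11.5% of the 10320 windows with 17 or more CpG, the lowest number among the windows of the 4 carriers. TCCCGC, searched on both strands, was found in the Slc25a31 window alone, against 22.1% of all genes. The longer TTCCCGC, which contains it, was found there too, against 5.29% of all genes. A match describes letters and does not show that a factor binds, and the windows of Dazl, Tex101, Asz1 and Stra8 lack these letters in this stretch.

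The windows differed in CpG content. The first windows of all 8 genes held more CpG than the median of all windows, which was 7, with a median of 20.5 over the 8 genes. Dazl (chr17:50293571-50293870, minus strand) with 28 and Stra8 (chr6:34920698-34920997, plus strand) with 10 show the contrast, with each CpG in capitals.
Dazl: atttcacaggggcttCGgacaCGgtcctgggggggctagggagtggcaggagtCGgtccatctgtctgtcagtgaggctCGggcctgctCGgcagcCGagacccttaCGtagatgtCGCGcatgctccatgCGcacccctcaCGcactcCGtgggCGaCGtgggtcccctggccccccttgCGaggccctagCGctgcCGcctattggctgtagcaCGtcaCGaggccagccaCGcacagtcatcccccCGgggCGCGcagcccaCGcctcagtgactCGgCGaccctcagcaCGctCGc
Stra8: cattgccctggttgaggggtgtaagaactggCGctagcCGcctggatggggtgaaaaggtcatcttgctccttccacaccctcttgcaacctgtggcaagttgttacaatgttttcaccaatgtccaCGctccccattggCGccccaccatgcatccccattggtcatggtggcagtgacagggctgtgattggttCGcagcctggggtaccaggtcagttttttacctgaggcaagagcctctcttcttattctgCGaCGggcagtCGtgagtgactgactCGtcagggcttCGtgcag
Stk31 had 29, Brdt 23, Slc25a31 22, Tex101 19, and Taf7l and Asz1 17 each.

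In the Ring1B-KO-labelled array, 5 of the 8 germ cell genes had signals at least 2-fold above the control, none was at least 2-fold lower, and 2 were at the floor on both arrays. Of all genes that exceeded the floor on either array, 3.54% were that much higher and 2.61% that much lower. In the dKO-labelled array all 8 genes had signals at least 2-fold below those of its control, where 9.99% of all genes were that much lower and 3.02% that much higher. Before the floor was applied, 7 of the 8 had higher signals on both the Ring1B-KO-labelled and the dKO-control-labelled array than on either of the other 2 arrays. Asz1 is the exception. The share of all genes with this order was not counted, so the order is given as description alone. For Brdt and Tex101 it rests on signals near or under the floor, apart from the dKO-control-labelled array. Tex101 and Asz1 were above the floor on the dKO-control-labelled array alone, and Brdt barely passed it on the Ring1B-KO-labelled array.

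**Figure D1:**
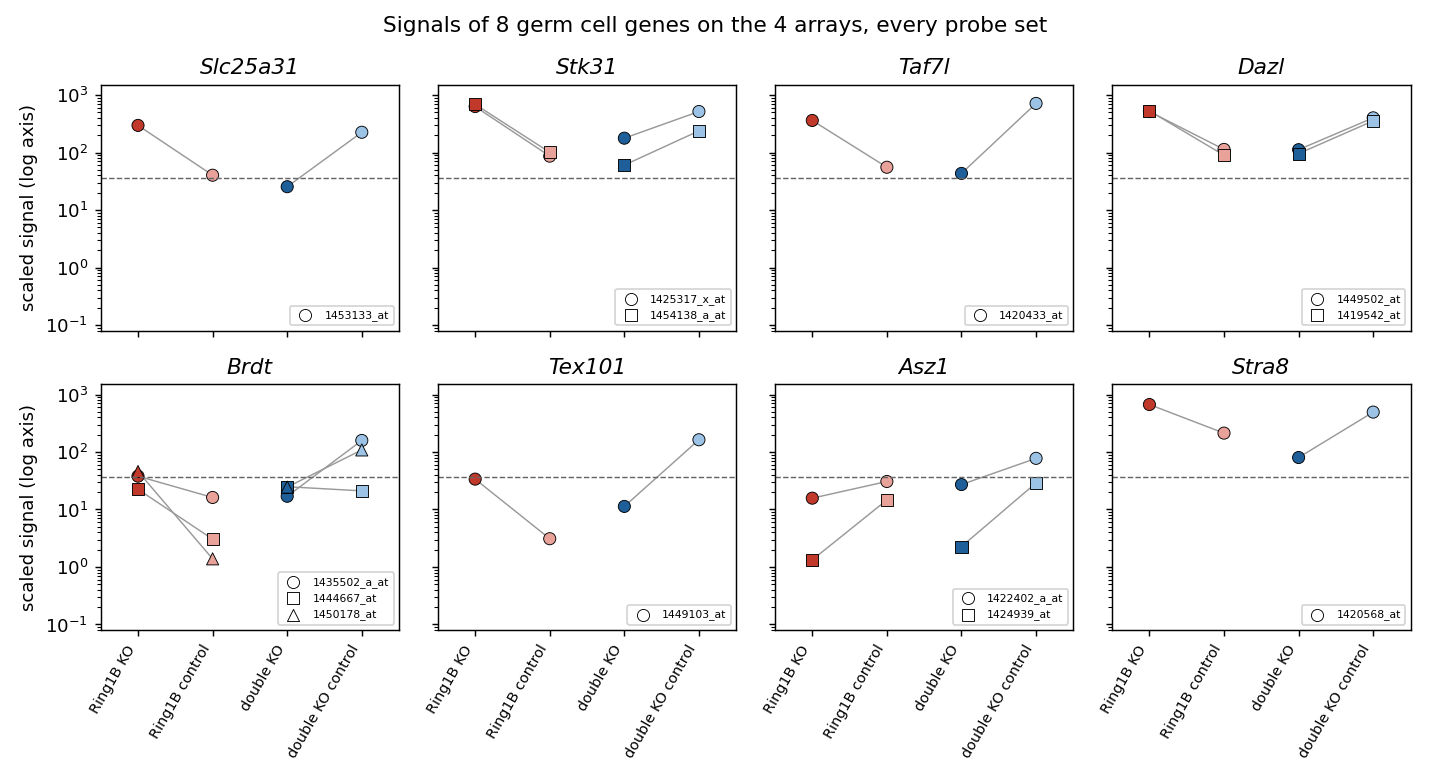
Scaled signal (log axis) of every probe set of the 8 genes on the 4 arrays, with the floor of 36.6 as a dashed line and a line joining the 2 arrays of a pair. Slc25a31, Stk31, Taf7l, Dazl and Stra8 are high on the Ring1B-KO-labelled array and on the dKO-control-labelled array, while Tex101 and Asz1 exceed the floor on the dKO-control-labelled array alone.

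Among the genes that act on transcription and chromatin, Taf7l, a germ cell paralog of the TFIID subunit Taf7, had the widest range. Its signal at its 1 probe set (1420433_at) was 361 on the Ring1B-KO-labelled array, against 55.5 on its control, and 43.4 on the dKO-labelled array, against 716 on its control. It was 6.51-fold higher in the first comparison, rank 11 of 12343 genes, and 16.5-fold lower in the second, rank 3 from the lowest of 12353. On the low arrays Taf7l stood just above the floor.

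Brdt encodes the testis member of the BET family, whose bromodomains bind acetylated histones. At its brightest probe set (1435502_a_at) the signal was 38.0 on the Ring1B-KO-labelled array, against 16.2 on its control, and 17.0 on the dKO-labelled array, against 159 on its control. Only the dKO-control-labelled array was clearly above the floor, which gives at least 4.34-fold lower in the dKO-labelled array and at least 0.05 higher on the log2 scale in the Ring1B pair. A second probe set (1450178_at) ran the same way, with 45.7 against 1.39 in the Ring1B pair and 24.5 against 109 in the double KO pair. The third (1444667_at) was under the floor on all arrays.

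Of the RNA and meiosis regulators, Dazl encodes an RNA-binding protein that promotes translation in germ cells. Its probe set 1449502_at had 516 on the Ring1B-KO-labelled array, against 113 on its control, and 112 on the dKO-labelled array, against 402 on its control. The other probe set (1419542_at) had 530 against 89.9 and 95.8 against 356 in the same pairs. Both probe sets were above the floor on all arrays and gave like sizes, 4.55- and 5.90-fold higher in the Ring1B comparison and 3.58- and 3.71-fold lower in the double KO comparison. On the 2 low arrays Dazl was nearly equal, with a log2 difference of −0.02 at the brighter probe set between the dKO-labelled array and the Ring1B control.

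Stra8, induced by retinoic acid in germ cells, is needed for entry into meiosis. Its 1 probe set (1420568_at) had 669 on the Ring1B-KO-labelled array, against 213 on its control, and 80.1 on the dKO-labelled array, against 494 on its control. It was above the floor on all 4 arrays, 3.14-fold higher in the first comparison and 6.17-fold lower in the second. Of the 5 genes that were 2-fold higher in the Ring1B-KO-labelled array, Stra8 had the smallest difference (1.65 on the log2 scale).

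Stk31 encodes a germ cell protein with a tudor domain and a kinase-like domain. Its brightest probe set (1425317_x_at) had 631 on the Ring1B-KO-labelled array, against 86.7 on its control, and 178 on the dKO-labelled array, against 517 on its control. The second probe set (1454138_a_at) had 689 against 101 and 60.5 against 238 in the same pairs. They gave 7.28- and 6.84-fold higher in the Ring1B comparison, and 2.91- and 3.94-fold lower in the double KO comparison. Across pairs they went opposite ways: the dKO-labelled array stood 1.04 above the Ring1B control on the log2 scale at the first and 0.74 below it at the second (−0.74). By their suffixes both can match several transcripts.

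Asz1 encodes an ankyrin repeat protein of the germ granules between mitochondria, which is known to act with piRNA proteins. Its brighter probe set (1422402_a_at) had 15.7 on the Ring1B-KO-labelled array, against 30.7 on its control, and 27.2 on the dKO-labelled array, against 77.5 on its control. A signal above the floor was thus present on 1 array alone, which gives at least 2.12-fold lower in the dKO-labelled array. The other probe set (1424939_at) was under the floor on all arrays.

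The remaining pair of genes act in energy supply and at the cell surface. Slc25a31 encodes the ADP/ATP carrier of germ cell mitochondria (also named Ant4), and its 1 probe set (1453133_at) had 297 on the Ring1B-KO-labelled array, against 40.3 on its control, and 25.5 on the dKO-labelled array, against 225 on its control. It was 7.35-fold higher in the first comparison, rank 6 of 12343 genes, and at least 6.16-fold lower in the second. Tex101, a glycoprotein of the germ cell surface needed for sperm to fertilise in mice, had 33.7 on the Ring1B-KO-labelled array, against 3.10 on its control, and 11.3 on the dKO-labelled array, against 163 on its control (1449103_at). Both arrays of the Ring1B pair were under the floor, so no fold is given there; in the double KO pair Tex101 was at least 4.46-fold lower.

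**Figure D2:**
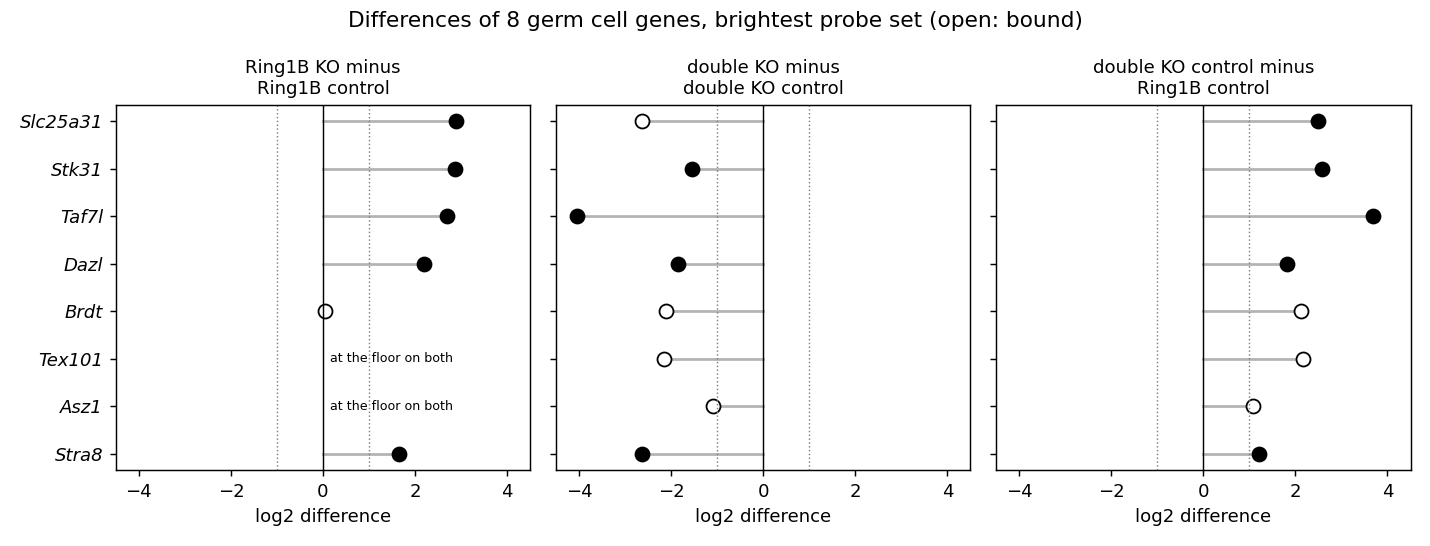
Log2 differences of the 8 genes at their brightest probe set in 3 comparisons, with filled points for differences measured on both arrays, open points for bounds and dotted lines at 2-fold. In the middle panel all 8 points lie to the left of the line at −1, from −1.08 for Asz1 to −4.04 for Taf7l.

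Over the 6 genes above the floor in the Ring1B comparison the median log2 difference was 2.44, beside −0.02 over all genes. In the double KO comparison the median over the 8 genes was −2.14, beside −0.05 over all genes. Slc25a31, Brdt, Tex101 and Asz1 were above the floor on the dKO-control-labelled array alone in that pair, so their direction followed from the floor, and neither the count nor the median is support for it. The other 4, Taf7l, Stra8, Dazl and Stk31, were measured on both arrays.

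The 2 control arrays are both labelled wild-type, and the 8 genes differed between them too. All 8 were at least 2-fold higher on the dKO-control-labelled array than on the Ring1B control, where 12.2% of all genes were that much higher and 8.15% that much lower. Brdt, Tex101 and Asz1 were above the floor on the dKO-control-labelled array alone here too, so their direction followed from the floor and the count is no support for it. Of the 5 measured on both arrays, Taf7l was 12.9-fold higher, Stk31 5.97-fold and Slc25a31 5.59-fold. These values share arrays with both comparisons above and rest on the scaling between pairs: with the signals as deposited 3 genes were at least 2-fold higher, and Asz1 and Stra8 turned to −0.30 and −0.43.

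Set against the opposite pair's control, the differences were mostly smaller. At the brightest probe sets none of the 8 was at least 2-fold higher on the Ring1B-KO-labelled array than on the dKO-control-labelled array (7.98% of all genes were), although the second probe set of Stk31 was 2.89-fold higher (689 against 238). Brdt, Tex101 and Asz1 were at least 2-fold lower (11.1% of all genes were), and for Tex101 and Asz1, under the floor on the Ring1B-KO-labelled array, no other direction was possible. On the dKO-labelled array, Stk31 was 2.05-fold higher than on the Ring1B control (7.82% of all genes were 2-fold or more above it), while Stra8 was 2.66-fold lower (9.87% were 2-fold or more below it). Taf7l turned to −0.99 in the first of these settings and Stk31 to 1.04 in the second. The sizes in both comparisons thus rest on the own control.

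Slc25a31, Stk31, Taf7l, Dazl and Stra8 were at least 2-fold higher on each of the Ring1B-KO-labelled and dKO-control-labelled arrays than on each of the other 2 arrays. Of 13081 genes above the floor on any array, 128 (0.979%) had this pattern. The 2 within-pair comparisons share no array. Of 437 genes at least 2-fold higher in the Ring1B-KO-labelled array, 224 (51.3%) were also at least 2-fold lower in the dKO-labelled array; they make up 18.2% of the 1234 genes lower there.

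After the floor was applied, the 8 genes had 2 shapes over the 4 arrays. Brdt, Tex101 and Asz1 were clearly above the floor on the dKO-control-labelled array alone, and the other 5 were high on that array and the Ring1B-KO-labelled array. The floor makes this split for Brdt and Tex101, whose signals before it were higher on both of these arrays than on the other 2. Each gene was then centred on its own mean. Among the 5, the closest were Slc25a31 and Dazl (Euclidean distance 0.744 over 4 arrays). The highest array was the one labelled Ring1B KO for 4 genes, Slc25a31, Stk31, Dazl and Stra8, and the one labelled double KO control for Taf7l, Brdt, Tex101 and Asz1.

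Among 12477 other genes above the floor on any array, the nearest to the mean profile of the 8 was Piwil2, which encodes an Argonaute-like protein of the piRNA pathway, at a distance of 0.111 over the 4 arrays. Piwil2 had 692 on the Ring1B-KO-labelled array, against 240 on its control, and 202 on the dKO-labelled array, against 997 on its control. Fam149a, Shtn1, Slc36a4 and the adenylate kinase gene Ak4 followed at 0.201, 0.209, 0.221 and 0.222. Of single members, Slc25a31 was closest to the piRNA gene Mael (0.219), Stra8 to the germ cell helicase gene Ddx4 (0.313), Taf7l to Hoxa9 (0.365), Dazl to Hoxa7 (0.192) and Stk31 to Myh6 (0.501). Hoxa7 was under the floor on the Ring1B control (9.81) and on the dKO-labelled array (3.39). Hoxa9 was under it on the dKO-labelled array (22.6) and Myh6 on the Ring1B control (20.8). Fam149a, Shtn1, Slc36a4 and Slc25a31 itself were also under the floor on the dKO-labelled array. Their distances thus rest in part on the floor. For Brdt, Tex101 and Asz1, with 1 array clearly above the floor, the nearest gene reflects that 1 value and is not interpreted.

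**Figure D3:**
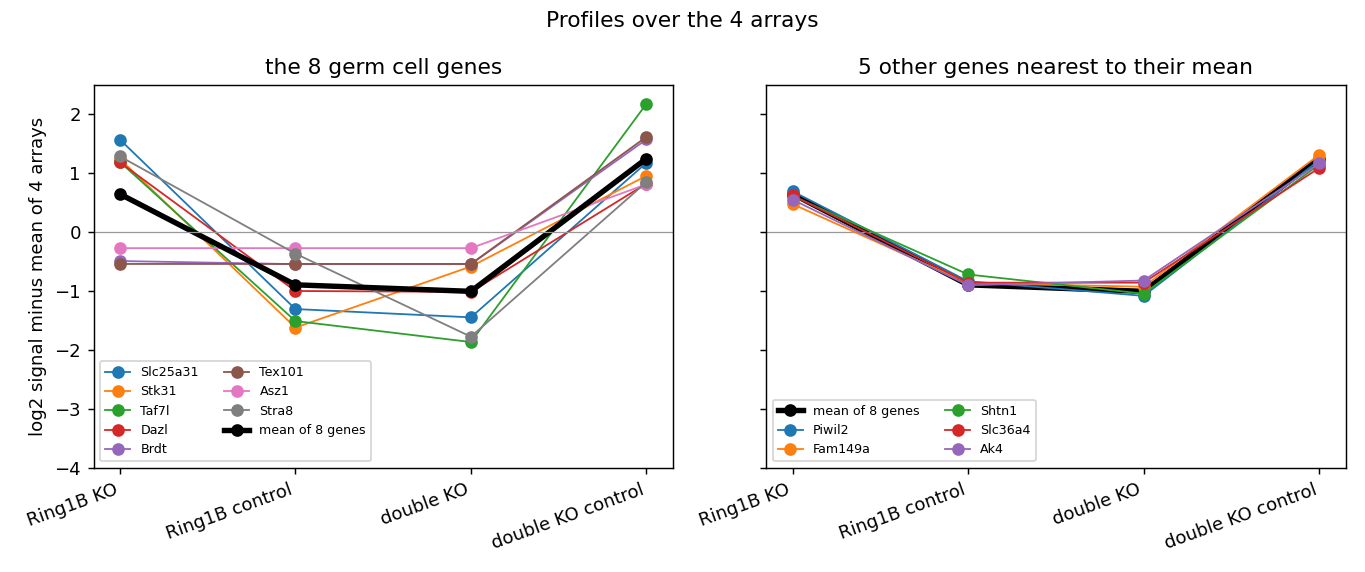
Floored log2 signal of each gene minus its mean over the 4 arrays, for the 8 germ cell genes (left) and the 5 other genes nearest to their mean (right), with the mean of the 8 in black. The mean profile is 0.65 on the Ring1B-KO-labelled array, −0.89 on its control, lowest on the dKO-labelled array and 1.25 on the dKO-control-labelled array.

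Other germline lists had smaller medians than the 8 genes in the Ring1B comparison. All of these lists, the 8 genes included, were chosen with earlier results of these data known. Of 9 piRNA pathway genes above the floor, 4 were at least 2-fold higher in the Ring1B-KO-labelled array and 1 lower, with a median of 0.90, from 2.76 for Mael to −1.19 for Tdrd12. In the double KO comparison 7 of 11 were lower and 1 higher, with a median of −2.29, from −3.52 for Tdrkh to 1.38 for Tdrd12. Of 13 synaptonemal complex and meiotic cohesin genes, 5 were higher in the Ring1B-KO-labelled array and none lower (median 0.92), and 8 were lower in the dKO-labelled array and none higher (median −1.44). Syce1 had the largest difference in the first comparison (3.06), Sycp1 the lowest in the second (−3.05), and Stag3 stood at −0.64 and 0.17. With the floor raised to the 60th percentile the medians of this list were −0.01 and −0.49, and without scaling the piRNA median in the Ring1B pair was 0.28.

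Lists of single stages of spermatogenesis held at most 2 genes that were 2-fold apart in a given direction. Of the meiotic prophase genes above the floor, 16.7% were higher in the Ring1B-KO-labelled array and 33.3% lower in the dKO-labelled array. For spermatogonial genes these shares were 16.7% and 14.3%, and 14.3% were higher in the dKO-labelled array. All genes had 3.54% higher in the first comparison, and 9.99% lower and 3.02% higher in the second. Each list share is 1 or 2 genes. Of 6 meiotic prophase genes above the floor, Meioc, which encodes a regulator of meiotic prophase, was 2.59-fold higher in the Ring1B-KO-labelled array. In the double KO comparison Meioc was 2.55-fold lower and Mei1 at least 3.76-fold lower, and the list medians were 0.13 and −0.71. Of the spermatogonial genes, Sohlh2, a bHLH transcription factor gene of spermatogonia, was 3.63-fold higher in the Ring1B-KO-labelled array and 2.15-fold lower in the dKO-labelled array, while Id4 stood at −0.63 and 2.18; the medians were −0.06 over 6 genes and −0.34 over 7. The spermatid list was at the floor on all 4 arrays for 7 of 10 genes, among them the transition protein genes Tnp1 and Tnp2, and none of the few with a value was 2-fold apart (median −0.18 over 3 genes in the Ring1B pair, and −0.04 for Crem alone in the double KO pair). Prm1, a protamine gene, had its highest signal, 59.5, on the Ring1B control.

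Genes of primordial germ cells, several of which ES cells also express, were counted in the same way. Beside these counts, 2.61% of all genes were at least 2-fold lower in the Ring1B-KO-labelled array and 3.02% higher in the dKO-labelled array. Of 7 on the array, 4 were at least 2-fold lower in the Ring1B-KO-labelled array and none higher, with a median of −1.08. Dppa3 was 5.29-fold lower (358 against 1894). In the dKO pair 2 were that much higher and none lower (median 0.27); Prdm1, a repressor gene of germ cell specification, was 4.10-fold higher (469 against 114), while Kit stood at −0.63, Dppa3 at −0.23 and Tfap2c at −0.07.

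**Figure D4:**
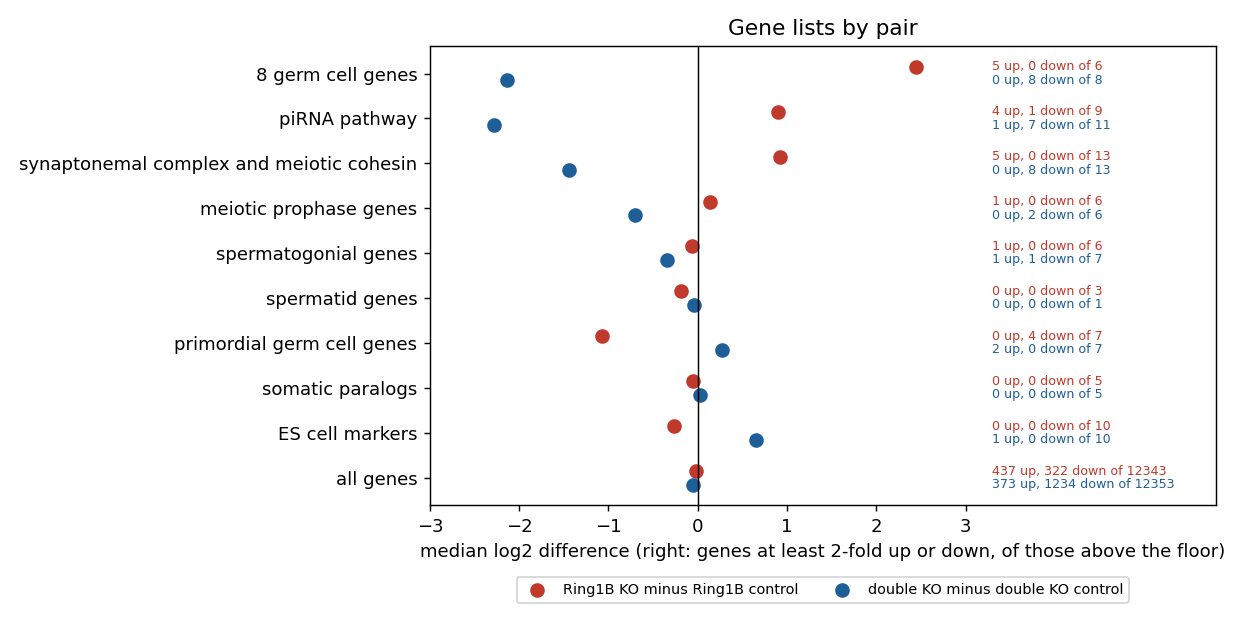
Median log2 difference of each gene list in the Ring1B pair (red) and the double KO pair (blue), with the number of genes at least 2-fold up or down of those above the floor at the right. The 8 germ cell genes stand at 2.44 and −2.14, the somatic paralogs at −0.06 and 0.02 and all genes at −0.02 and −0.05.

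Widely expressed paralogs of the germ cell genes were examined beside them. Slc25a4 and Slc25a5 encode the ADP/ATP carriers of somatic cells, Taf7 the TFIID subunit of somatic cells, and Brd2 and Brd3 BET proteins that are widely expressed. None of these 5 genes was 2-fold apart in either pair. Taf7 had 1499 on the Ring1B-KO-labelled array, against 1559 on its control, and 553 on the dKO-labelled array, against 746 on its control. The differences in the 2 pairs were 0.04 and −0.62 for Slc25a4, −0.17 and 0.13 for Slc25a5, 0.61 and 0.02 for Brd2, and −0.20 and 0.21 for Brd3.

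Of 21 genes of PRC1.6 and of DNA and H3K9 methylation, 1 was at least 2-fold lower in the Ring1B-KO-labelled array and none higher (median −0.04). This was Tfdp2, a dimer partner of E2F factors, at 3.06-fold lower, and E2f6 stood at 0.84. Of 20 in the double KO comparison 1 (5%) was higher and 2 (10%) lower (median 0.23), beside 3.02% and 9.99% of all genes. In the Ring1B comparison 4.76% of this list were lower, beside 2.61% of all genes. The shares of the list are near those of all genes, so single genes are named as description alone. Dnmt3a, a DNA methyltransferase gene, was 3.63-fold higher (2030 against 559), Yaf2 was 2.22-fold lower and E2f6 2.18-fold lower. At the brightest of its 2 probe sets E2f6 had 733 on the Ring1B-KO-labelled array, against 409 on its control. On the dKO-labelled array it had 444, against 968 on its control. E2f6 was thus higher on the same array of each pair as most of the germ cell genes, though under 2-fold in the Ring1B pair. Yaf2 went the same way (0.54 and −1.15), while Tfdp2 (−1.61 and 0.89) and Mga (−0.57 and 0.78) went the opposite way.

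Markers of other cells moved with these results in part. Of the fibroblast markers, which a feeder layer would carry, 2 of 14 were at least 2-fold higher in the Ring1B-KO-labelled array and none lower (median 0.46), and 11 of 15 were lower in the dKO-labelled array and none higher (median −1.73, or −0.96 with the mean over all probe sets of a gene). Their summed signal was 24813 on the Ring1B-KO-labelled array, against 17544 on its control, and 11912 on the dKO-labelled array, against 17585 on its control. Fn1, Sparc and Vim were the brightest on every array and weigh most in these sums. On the dKO-labelled array, against its control, Fn1 had 6222 against 5108, Sparc 3531 against 7640 and Vim 1246 against 1428. The ES cell markers had medians of −0.26 and 0.66. The part of either list in the differences of the germ cell genes was not tested, and on these bulk arrays fewer cells of a type and less RNA per cell cannot be told apart. Sertoli and Leydig cell markers were mostly dim: Sox9, Amh, Fshr, Cyp17a1 and Hsd3b1 were at the floor on all 4 arrays. Only 3 of 9 had a value in the Ring1B pair and 4 in the double KO pair, some of them bounds, and no value reached 2-fold (medians −0.19 and −0.30).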

How the data were processed

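The deposited values are signal intensities on a linear scale, 1 per probe set and array, made by the authors with the MAS5 algorithm, according to the submitters' processing notes; the version and settings are not given in the sources used here. Biotin-labelled RNA was prepared with a single-cycle amplification kit, per the labels' protocols.

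Arrays were scaled to a common 2%-trimmed mean of 277, the geometric mean over the 4 arrays, with factors of 0.554 in the Ring1B pair, 1.89 for the dKO-labelled array and 1.73 for its control. Signals were floored at 36.6, the 40th percentile over named probe sets, and log2-transformed. The floor shrinks differences of dim genes. Of 45101 probe sets, 34958 had 1 gene symbol in the platform annotation, 932 with several stayed unnamed, and 9211 carried no symbol in the annotation used here; the 64 control probe sets were left out of genes. The probe set with the highest mean log2 signal stood for a gene. A difference of at least 2-fold was counted as called. No test across arrays was run, since each group holds 1 array, and depth is not a property of arrays: their number limits the precision. The steps were tested on simulated data.

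The 8 members and the 12 other gene lists were chosen with earlier results of these data known. Named genes were the 8 members, Ring1, Rnf2, 3 ES cell genes, the extremes of each list, the somatic paralogs and the genes nearest to the members by Euclidean distance; a few further list members are named after their values were seen. Likeness used floored log2 signals centred on each gene's mean over the 4 arrays. Promoter sequences are from RefSeq (GRCm38.p6). Alternatives changed the scaling, the floor and the choice of probe set. Python 3.11.15, numpy 2.4.6, pandas 2.3.3 and scipy 1.17.1 were used.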

Additional observations from a re-analysis of the deposited data

Results flagged for a closer look

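Slc25a31, Stk31, Taf7l, Dazl and Stra8 are listed because each was at least 2-fold higher in the Ring1B-KO-labelled array than in its control and at least 2-fold lower in the dKO-labelled array than in its control. Each side is 1 pair of arrays, so the difference between the pairs was not tested. The log2 difference in the double KO pair minus that in the Ring1B pair was −6.75 for Taf7l (−4.04 and 2.70). It was at most −5.50 for Slc25a31, whose value in the double KO pair is a bound (−2.62 and 2.88). It was −4.40 for Stk31 (−1.54 and 2.86), −4.28 for Stra8 (−2.63 and 1.65) and −4.02 for Dazl (−1.84 and 2.18). No group held enough arrays to look for a deviating one.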

How the results depend on the processing

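No paired analysis was possible because each group holds 1 array. Under the 8 other settings of scaling, floor and probe set the 5 genes that were 2-fold higher in the Ring1B-KO-labelled array stayed at 1.23 or more on the log2 scale (the lowest is Slc25a31). In the double KO pair Taf7l, Stra8, Dazl and Stk31 stayed at −1.34 or lower. Stk31 has no value in either pair when probe sets with possible matches to several transcripts are dropped, since both of its own are such. Raising the floor to the 60th percentile (127) gave a Ring1B median of 1.65, a double KO median of −1.54 with 4 genes at least 2-fold lower, and a median of 1.21 between the controls with 4 genes higher; at the 20th percentile the double KO median was −2.89. The counts of dim members thus rest on the floor. Between the controls, signals as deposited gave a median of 0.89 with 3 genes higher, and turned Asz1 to −0.30 and Stra8 to −0.43. Against the control of the other pair, a comparison chosen after seeing the data, the Ring1B median turned to −0.35 with 0 genes higher and 3 lower, and Taf7l to −0.99; the double KO median was −0.14 with 1 gene higher and 1 lower, and Stk31 turned to 1.04.

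Counts over all genes moved as follows. At the 20th percentile as the floor, 880 genes were higher and 762 lower in the Ring1B comparison, 928 higher and 2172 lower in the double KO comparison, and 1748 lower between the controls. With the 60th percentile these were 168 and 152, 218 and 530, and 982 higher and 638 lower between the controls. Signals as deposited gave 232 higher in the double KO comparison and 96 higher and 8887 lower between the controls. The floor as a pseudocount gave 179 lower in the Ring1B comparison, scaling to a common median 609 higher in the double KO comparison, and the mean over probe sets 992 higher between the controls. Under the 8 settings, leaving out the comparisons with the other pair's control, 25 of 120 medians and counts moved by over 1.5 times. No median of the germ cell genes turned its direction. Counts have no direction, so they could not turn. Of 166 values for the single germ cell genes 35 moved and 2 turned. Of 285 medians of gene lists 21 moved by that much, most of them between the controls on signals as deposited. Apart from the floor and the scaling, the cause of these shifts was not tested.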

Other observations

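Genes of the retinoic acid response, which induces Stra8 in germ cells, differed in part in the direction of Stra8. Of 8 above the floor in the Ring1B comparison, 2 were 2-fold or more above the control in the Ring1B-KO-labelled array and none lower, with a median of 0.30. The share of all genes that much higher was 3.54%. Cyp26a1, which encodes an enzyme that degrades retinoic acid, was 3.75-fold higher (212 against 56.6). Stra6, a retinol uptake receptor gene, was at least 2.78-fold higher (102 against a signal at the floor), and it was under the floor on both arrays of the double KO pair. In the double KO comparison 2 of 7 were lower (median −0.54) and none higher, where 9.99% of all genes were lower. Crabp1, a retinoic acid binding protein gene, was 4.64-fold lower (207 against 960) and Cyp26a1 at least 2.15-fold lower. Rara, a retinoic acid receptor gene, stood at −0.79 and 0.92, and Rarg at −0.04 and 0.64, against the direction of Stra8 in both pairs. Rxra (−0.10) and Crabp2 (−0.06) were also slightly below the control in the Ring1B pair. Between the controls, where Stra8 was 2.32-fold higher on the dKO-control-labelled array, 2 of 7 of these genes were lower there and none higher. A link of these genes to Stra8 was not tested.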
